A study of Mus musculus with 2 samples.

Results

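Forkhead genes encode transcription factors that share a winged-helix DNA-binding domain. The 9 members described here, Foxf1, Foxf2, Foxd1, Foxd2, Foxl1, Foxc1, Foxc2, Foxp2 and Foxe1, were chosen by symbol from the 27998 genes of the count matrices, which hold 44 forkhead genes in all. All 9 were found in both matrices. Transcripts were counted as unique molecular identifiers (UMIs) in single cells of the mouse lambdoid junction at embryonic day E11.5, where the nasal and maxillary prominences meet to form the upper lip and primary palate. The samples were a Crect; ROSA26-lacZ library of about 7000 stated cells and a wild-type library of about 8000, both labelled C57BL/6J and each made from a pool of 4 to 5 embryos. Crect is a transgene that expresses Cre recombinase in surface ectoderm, and ROSA26-lacZ is its reporter allele. Each genotype is thus represented by 1 library, and a difference between the libraries has no replicate check.

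In facial development, Hedgehog ligand from the epithelium acts on neural crest mesenchyme, and mouse Foxf1, Foxf2, Foxd1 and Foxd2 are known as genes that respond to it. Foxf2 is required for the mouse secondary palate. Foxc1 and Foxc2 act in periocular mesenchyme, somites and blood vessels, Foxl1 is best known from gut mesenchyme, Foxp2 from brain and lung, and Foxe1 from the thyroid and the oral epithelium, where its loss in humans causes cleft palate.

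The Crect lacZ matrix held 6894 barcodes with 127765199 UMIs, and the wild-type matrix 7966 barcodes with 126638790 UMIs. Of these, 6687 and 7909 had at most 10% mitochondrial UMIs, and they carried 14934 Crect lacZ and 9630 wild-type UMIs of the members. After removal of likely doublets, 6318 Crect lacZ and 7405 wild-type cells remained, with medians of 17275 and 13822 UMIs. The libraries shared 76 barcode sequences, 59 of them among the cells kept. The Crect lacZ matrix has 2 extra entries for transgenes, which were not used. Cells were clustered with every forkhead gene held out, and the clusters were named from marker genes. Mesenchyme-like cells made up 5252 Crect lacZ and 5915 wild-type cells, ectoderm-like cells 680 and 932, and endothelium-like cells 118 and 207. Prrx1, a mesenchymal marker, stood at 216 UMIs per 1000000 UMIs of the group (CPM) in Crect lacZ and 242 CPM in wild-type mesenchyme, against 22.2 and 13.1 CPM in ectoderm. Epcam stood at 414 and 421 CPM in ectoderm, and Cdh5 at 476 and 530 CPM in endothelium.

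The genes lie in several small groups in the genome (GENCODE positions on GRCm38). Foxf1 (chr8:121084386-121088144, plus strand, 2 exons), Foxc2 (chr8:121116171-121118895) and Foxl1 (chr8:121127940-121130644) share a stretch of chromosome 8 in which Foxf1 and Foxl1 are 39.8 kb apart. The long non-coding RNA gene Fendrr lies 1.3 kb from Foxf1 on the opposite strand. Foxf2 (chr13:31625816-31631403) and Foxc1 (chr13:31806633-31812476) are 175.2 kb apart on chromosome 13, which also carries Foxd1 (chr13:98354242-98359305). Foxe1 (chr4:46343609-46346412), Foxd2 (chr4:114906282-114908873, minus strand) and Foxp2 (chr6:14901349-15441977) complete the set. The antisense gene Foxd2os lies 0.4 kb from Foxd2, so the annotated genes do not overlap, and Foxd2os is not among the genes counted. No label or note at hand says whether counting used strand. Any Foxd2os transcript that reached beyond its annotated bounds into Foxd2 could therefore not be told apart.

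RefSeq promoter sequence (GRCm38.p6) was at hand for 4 of the 9 members. Of these, Foxf2, Foxd1 and Foxd2 were called higher in maxillary-like than in nasal-like mesenchyme, and Foxc1, the neighbour of Foxf2, was not. The 250 bases before the start are shown 5′ to 3′ on the strand of the gene, with capitals for matches on either strand to the GC box GGGCGG and to the CCAAT box CCAAT.
Foxf2 (chr13:31625566-31625815, plus strand): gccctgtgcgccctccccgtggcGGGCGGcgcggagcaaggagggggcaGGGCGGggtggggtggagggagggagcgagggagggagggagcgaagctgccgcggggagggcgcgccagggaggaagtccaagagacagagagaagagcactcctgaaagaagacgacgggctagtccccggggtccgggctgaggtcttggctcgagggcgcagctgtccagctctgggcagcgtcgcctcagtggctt
Foxd1 (chr13:98353995-98354244, plus strand): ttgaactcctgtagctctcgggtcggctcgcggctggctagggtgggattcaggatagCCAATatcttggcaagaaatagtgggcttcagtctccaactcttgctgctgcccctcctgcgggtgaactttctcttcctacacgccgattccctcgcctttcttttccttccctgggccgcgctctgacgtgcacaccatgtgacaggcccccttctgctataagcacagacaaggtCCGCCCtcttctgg
Foxd2 (chr4:114908899-114909148, minus strand): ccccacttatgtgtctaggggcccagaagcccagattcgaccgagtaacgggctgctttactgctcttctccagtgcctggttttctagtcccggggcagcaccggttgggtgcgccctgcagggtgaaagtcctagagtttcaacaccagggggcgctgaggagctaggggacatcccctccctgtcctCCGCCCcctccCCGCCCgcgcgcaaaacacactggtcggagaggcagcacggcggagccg
Foxc1 (chr13:31806396-31806645, plus strand): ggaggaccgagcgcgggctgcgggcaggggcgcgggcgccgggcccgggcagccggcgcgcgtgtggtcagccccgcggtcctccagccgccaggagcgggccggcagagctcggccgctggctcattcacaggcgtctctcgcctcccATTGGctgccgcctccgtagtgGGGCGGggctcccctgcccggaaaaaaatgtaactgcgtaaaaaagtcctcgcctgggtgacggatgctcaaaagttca
The GC box was found 2 times in Foxf2, once in Foxd1, 2 times in Foxd2 and once in Foxc1, and in 32.7% of the 32851 promoters of the table. The CCAAT box was found in Foxd1 and Foxc1 and in 33.8% of all promoters, and no matches overlapped. TATAAA (12.4% of promoters), the Gli site GACCACCCA (0.225%) and the forkhead core TGTTTAC (3.17%) had no match in these 4 windows. GC content was 71.6% in Foxf2, 57.2% in Foxd1, 64.4% in Foxd2 and 70.8% in Foxc1, against a median of 52.4% over all promoters.

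Ectoderm was compared with mesenchyme by summing UMIs per library and class. Foxf1, Foxf2, Foxd1, Foxd2 and Foxp2 were lower in ectoderm, Foxe1 was higher, and Foxc1 and Foxc2 were not called. Foxf1 stood at 1.30 CPM in Crect lacZ and 0.297 CPM in wild-type ectoderm, against 21.4 and 8.38 CPM in mesenchyme (log2 change -4.27 ± 0.20 SE, adjusted p = 2.47e-08). Foxf2 stood at 1.37 and 1.55 CPM in ectoderm, against 19.0 and 18.8 CPM in mesenchyme (log2 change -3.66 ± 0.16 SE, adjusted p = 1.07e-08). In both libraries the Foxf genes were far lower in ectoderm. Foxd1 had 1 UMI in Crect lacZ and 1 in wild-type ectoderm, against 277 and 86 UMIs in mesenchyme (log2 change -4.76 ± 0.57 SE). Foxd2 fell by 3.62 on the log2 scale. Foxp2 fell by 1.96, with 13.9 and 13.8 CPM in ectoderm against 61.8 and 48.4 CPM in mesenchyme.

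Foxe1 was the ectodermal member. It stood at 30.5 CPM in Crect lacZ and 28.4 CPM in wild-type ectoderm, against 0.439 and 0.446 CPM in mesenchyme (log2 change 6.06 ± 0.14 SE, adjusted p = 1.30e-10). Ectoderm held 86.8% of its Crect lacZ and 91.2% of its wild-type UMIs. Between ectoderm and mesenchyme, 1 of the 8 members tested was called higher, where 13.8% of all 15145 genes were, and 5 were called lower, where 8.64% of all genes were. A call required an adjusted p under 0.05 and at least a 2-fold change. Foxl1 did not pass the filter on low counts in any comparison. Because the classes were drawn from the same cells and each comparison rests on 4 sums, the p-values are too small, and the values of both libraries are given beside each.

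Foxc1 was the 1 member called higher in endothelium than in mesenchyme. Endothelium held 28.1 CPM of Foxc1 in Crect lacZ and 36.3 CPM in wild type, against 17.0 and 4.93 CPM in mesenchyme (log2 change 1.98 ± 0.14 SE, adjusted p = 2.63e-47). Endothelium held 7.12% of the Crect lacZ and 28.9% of the wild-type Foxc1 UMIs, and mesenchyme 86.8% and 55.6%. The gap was wide in the wild-type library and small in the Crect lacZ library, whose mesenchyme was the higher of both. The call was lost without the library term (adjusted p = 0.0615) and with DESeq2 (adjusted p = 0.068). A Foxc1 UMI was found in 11.02% of Crect lacZ endothelial cells (95% Clopper-Pearson interval 6.00 to 18.1%) and 13.0% of wild-type ones (8.77 to 18.4%) after thinning each cell to 3000 UMIs, and in 58.5% and 58.0% without thinning. Erythroid cells, which should lack the gene, had it in 0 of 136 and 0 of 227 thinned cells.

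Foxf1, Foxf2, Foxd1, Foxd2 and Foxp2 were called lower in endothelium than in mesenchyme. Foxf1 stood at 1.08 CPM in Crect lacZ and 0.511 CPM in wild-type endothelium (log2 change -4.03 ± 0.33 SE), and Foxf2 at 0.649 and 1.36 CPM (log2 change -3.98 ± 0.28 SE). Foxd1 had 2 and 0 UMIs there, and its call was lost without the library term (adjusted p = 0.0902). Foxd2 changed by -1.69 ± 0.39 SE and Foxp2 by -2.06 ± 0.13 SE on the log2 scale. Foxc2, at 4.32 CPM in Crect lacZ and 3.41 CPM in wild-type endothelium, did not pass the test (adjusted p = 0.89), nor did Foxe1 (4 and 5 UMIs, adjusted p = 0.162). Of the 8 members tested, 1 was called higher against 12.6% of all genes and 5 lower against 16.2%.

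**Figure D1:**
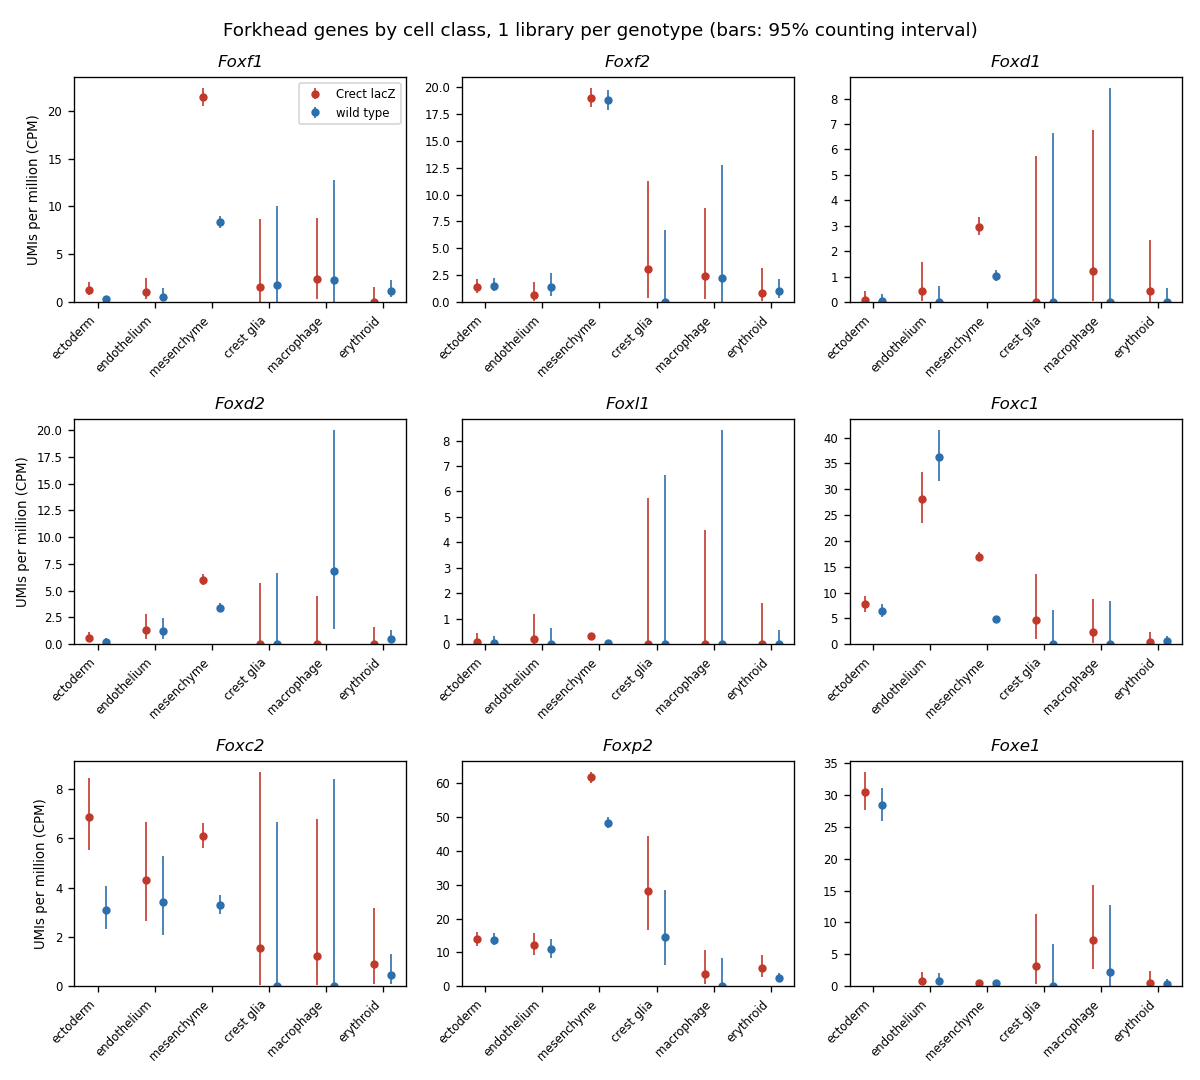
UMIs per 1000000 (vertical axis, CPM) of each member in 6 cell classes (horizontal axis), with the Crect lacZ library in red and the wild-type library in blue; bars are exact 95% Poisson intervals for counting error. Foxe1 is high in ectoderm at 30.5 and 28.4 CPM, Foxc1 in endothelium at 28.1 and 36.3 CPM, and Foxf2 in mesenchyme at 19.0 and 18.8 CPM.

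Within mesenchyme, 12 sub-clusters were found, of which 2 had maxillary markers, 8 nasal, 1 chondrogenic, and 1 stayed unnamed. Foxf1, Foxf2, Foxd1 and Foxd2 were higher in maxillary-like cells (943 Crect lacZ and 1467 wild-type) than in nasal-like cells (3428 and 3884), whereas Foxc2 and Foxp2 were lower. Foxf1 stood at 35.02 CPM in Crect lacZ and 20.4 CPM in wild-type maxillary-like cells, against 4.11 and 1.77 CPM in nasal-like cells (log2 change 3.27 ± 0.10 SE, adjusted p = 6.19e-150). Foxf2 stood at 51.2 and 43.9 CPM, against 6.68 and 5.82 CPM (log2 change 2.95 ± 0.07 SE, adjusted p = 7.48e-195). For both genes the maxillary and nasal values did not overlap. Foxd1 stood at 7.89 and 2.83 CPM, against 0.872 and 0.323 CPM (log2 change 3.18 ± 0.22 SE). Foxd2 stood at 12.8 and 7.40 CPM, against 2.78 and 2.05 CPM (log2 change 2.07 ± 0.14 SE). The wild-type library gave the lower value of both Foxd genes in both territories.

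Foxc2 and Foxp2 were higher on the nasal side. Foxc2 stood at 2.01 CPM in Crect lacZ and 0.66 CPM in wild-type maxillary-like cells, against 7.52 and 4.85 CPM in nasal-like cells (log2 change -2.22 ± 0.19 SE). Foxp2 stood at 35.8 and 20.7 CPM, against 76.5 and 66.8 CPM (log2 change -1.35 ± 0.05 SE). Foxc1 had a log2 change of -0.05 ± 0.11 SE (adjusted p = 0.799) and Foxe1 did not pass the test. Of the 8 members tested, 4 were called higher against 1.74% of all 14167 genes and 2 lower against 2.81%. Without the library term the counts over all genes shrank to 9 higher and 27 lower, and only Foxf2 kept its call among the 6 members (adjusted p = 0.179 for Foxf1, 0.305 for Foxd1, 0.2 for Foxd2, 0.369 for Foxc2 and 0.316 for Foxp2). With a lower clustering resolution, which left 1 maxillary-like sub-cluster of 311 Crect lacZ and 443 wild-type cells, Foxp2 was at 0.07 (adjusted p = 0.679) and Foxc1 at 0.77 (adjusted p = 0.000261) on the log2 scale, so the sign of both depends on how the territories are drawn.

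The share of cells with a transcript showed the same ordering for the Foxf genes. After thinning to 3000 UMIs, Foxf2 was found in 12.8% of Crect lacZ maxillary-like cells (95% interval 10.8 to 15.1%) and 12.2% of wild-type ones (10.6 to 14.0%), against 1.69% and 1.44% of nasal-like cells. Without thinning these shares were 49.4% and 39.7%, against 7.64% and 6.23%. Foxf1 was found in 10.6% and 6.20% of thinned maxillary-like cells, against 1.14% and 0.515% of nasal-like cells. Without thinning, Foxf1 was found in 33.8% and 16.6%, against 5.25% and 1.91%. Thinned erythroid cells gave 0 and 1 cell with Foxf1 and 1 and 0 cells with Foxf2, of 136 Crect lacZ and 227 wild-type cells with median depths of 13546 and 29449 UMIs. Without thinning, 3.52% of the wild-type erythroid cells had Foxf1, above the 1.91% of the less deep wild-type nasal-like cells.

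Ordered by mean level over the libraries, Foxf2 was highest in the maxillary-like sub-cluster led by Shox2 and Osr2, at 55.9 CPM in Crect lacZ and 50.5 CPM in wild type. The other maxillary-like sub-cluster, led by Hist1h2bc and Cxcl14, followed at 44.8 and 35.5 CPM, and the chondrogenic-like one at 30.8 and 47.4 CPM, and these overlapped. An unnamed sub-cluster led by Postn and Nrp2 stood at 30.8 and 34.5 CPM. Next came 2 nasal-like sub-clusters, led by Rpgrip1 (24.0 and 22.6 CPM, with a relative depth of 0.508) and by Cxcl14 and Dlx5 (25.8 and 17.5 CPM). The remaining 6 lay at or below 3.38 CPM in both libraries. Foxf1 had another leader, the chondrogenic-like sub-cluster, at 122 and 120 CPM, followed by the Shox2-led one at 38.3 and 24.0 CPM, the Hist1h2bc-led one at 30.5 and 15.7 CPM and the Postn-led one at 29.8 and 14.5 CPM, and the values of these 3 overlapped. Foxd1 was highest in the Shox2-led sub-cluster (8.95 and 3.26 CPM), which overlapped the Hist1h2bc-led one (6.45 and 2.27 CPM). Foxd2 was highest in the Shox2-led sub-cluster too (19.4 and 9.95 CPM), which overlapped the chondrogenic-like one (18.0 and 2.79 CPM). In the Hist1h2bc-led sub-cluster Foxd2 stood at 3.82 and 4.11 CPM.

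Foxc2 peaked in a single nasal-like sub-cluster led by Gsc, Osr1 and Ebf1. It stood there at 32.5 CPM in Crect lacZ and 28.9 CPM in wild type, and no other sub-cluster reached 10 CPM in either library. Foxc1 stood at 37.5 and 18.6 CPM in the same cells, below only the chondrogenic-like sub-cluster at 89.6 and 30.7 CPM. Foxd2 was also 5.42 and 6.33 CPM there, its highest nasal value in wild type. Foxp2 was highest in another nasal-like sub-cluster led by Foxp2 itself, Cntfr, Igf1 and Pax7, at 191 and 203 CPM, without overlap with the next. The Gsc-led sub-cluster followed at 129 and 83.8 CPM, and the lowest was the Cxcl14- and Dlx5-led one at 7.72 and 4.21 CPM. Foxf1 had its lowest level in the Foxp2-rich cells, at 1.12 CPM in Crect lacZ and 0 CPM in wild type, below its level in ectoderm (1.30 and 0.297 CPM).

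Foxl1, the distal neighbour of Foxc2, was close to the detection floor, with 29 UMIs in Crect lacZ and 5 in wild-type mesenchyme. Of these, 18 Crect lacZ and 0 wild-type UMIs were in the chondrogenic-like sub-cluster, and 6 and 4 UMIs in the Gsc-led one. The 0 of 358814 UMIs in the wild-type chondrogenic-like cells allows up to 8.36 CPM, above the 2.42 CPM of Crect lacZ, so a difference was not detectable at this depth.

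**Figure D2:**
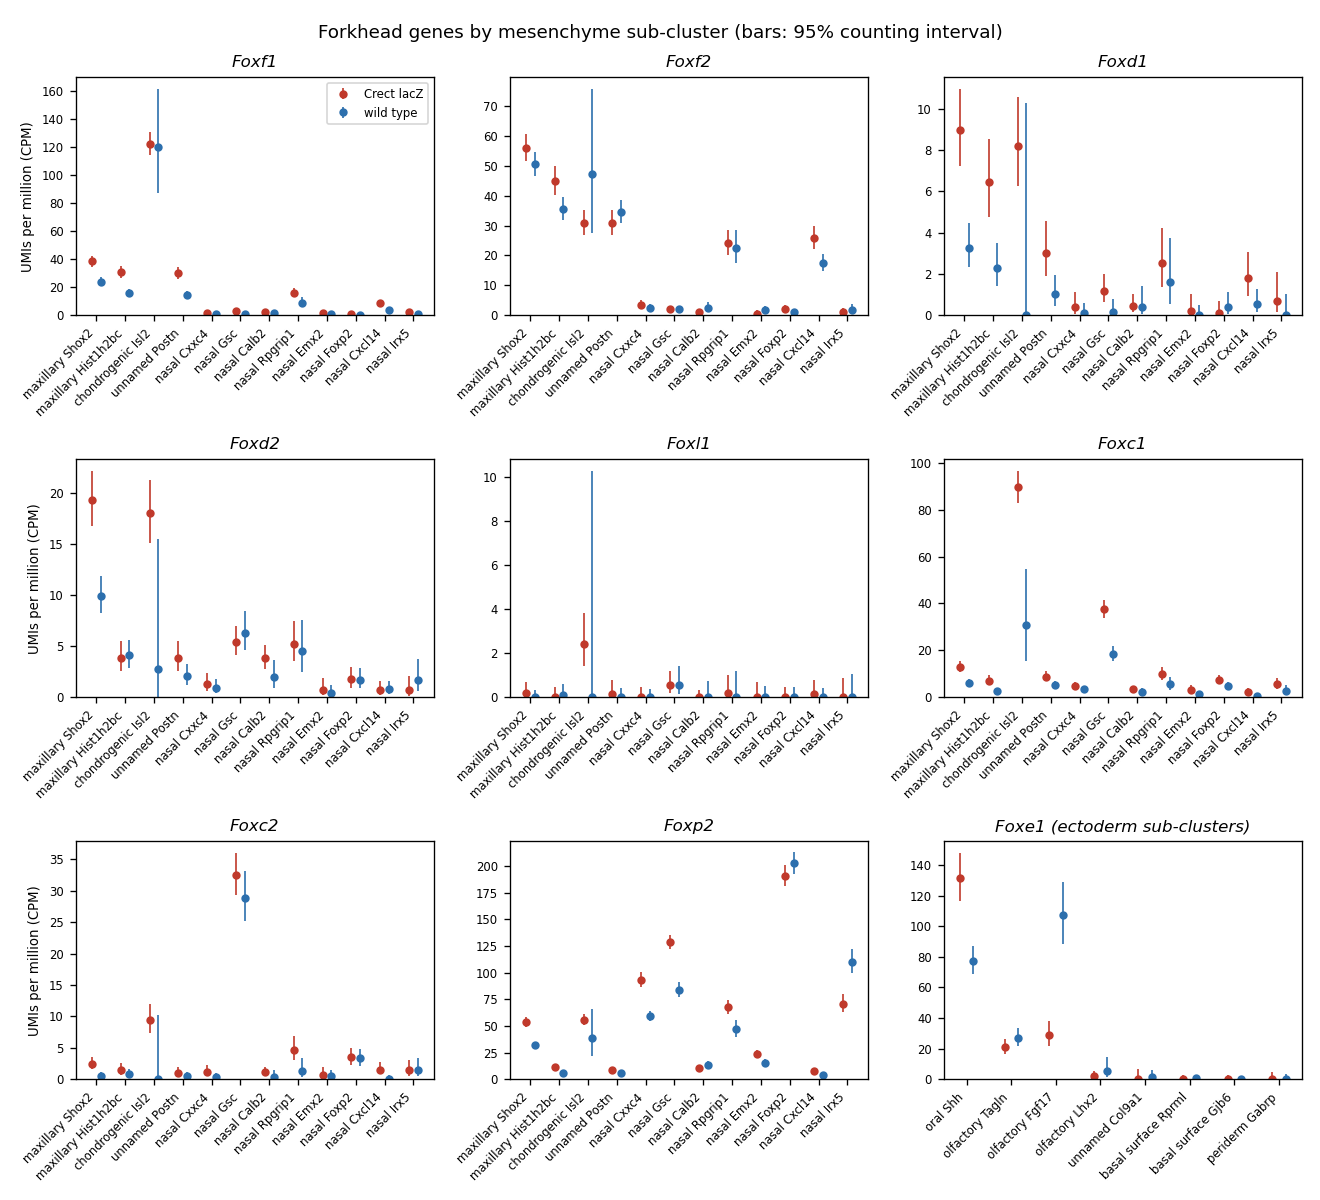
UMIs per 1000000 (vertical axis, CPM) of each member by sub-cluster (horizontal axis, each named by its class and a leading gene), in mesenchyme for 8 members and in ectoderm for Foxe1; red is Crect lacZ, blue is wild type, and bars are exact 95% Poisson intervals. Foxf2 reaches 55.9 and 50.5 CPM in Shox2-led cells, Foxc2 is high in Gsc-led cells (32.5 and 28.9 CPM), and Foxp2 peaks at 191 and 203 CPM in the Foxp2-led sub-cluster.

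In ectoderm, Foxe1 marked the oral-like sub-cluster, whose leading genes included Shh and Fgf8. It stood at 132 CPM in Crect lacZ and 77.5 CPM in wild-type oral-like cells (108 and 165 cells), against 11.7 and 15.5 CPM in the other ectoderm (log2 change 2.95 ± 0.13 SE, adjusted p = 5.98e-111). It was found in 23.1% of thinned Crect lacZ and 19.4% of thinned wild-type oral-like cells, and in 68.5% and 58.2% without thinning. Foxe1 was not confined to oral-like cells. An olfactory-like sub-cluster led by Fgf17 and Dlx5 stood at 29.0 CPM in Crect lacZ and 107 CPM in wild type, and another, led by Tagln and Mgp, at 20.9 and 27.2 CPM. In wild type the Fgf17-led sub-cluster was thus above the oral-like one, and the values of these sub-clusters overlapped between the libraries. The basal surface and periderm sub-clusters had 0 Crect lacZ UMIs and at most 2 wild-type UMIs.

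Foxp2 was also higher in oral-like cells, at 23.9 CPM in Crect lacZ and 28.3 CPM in wild type, against 12.1 and 9.98 CPM in the other ectoderm (log2 change 1.36 ± 0.18 SE, adjusted p = 1.09e-11). That call was lost without the library term (adjusted p = 0.0525). Foxc2 had 0 UMIs in oral-like cells of both libraries, against 90 Crect lacZ and 52 wild-type UMIs in the other ectoderm, which is at least 10.8-fold lower at a floor of 3 UMIs over the group. Its call was lost without the library term (adjusted p = 0.0979) and with DESeq2 (adjusted p near 1). Foxc2 was instead highest in the Lhx2- and Neurod1-led olfactory-like cells, at 13.9 and 25.05 CPM, and in the Tagln-led ones, at 14.5 and 7.89 CPM. Foxc1 (11.2 and 5.43 CPM, against 7.04 and 6.75 CPM) and Foxf2 did not pass the test. Of the 5 members tested, 2 were called higher against 2.18% of all 12275 genes, and 1 lower against 3.26%.

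The chondrogenic-like sub-cluster, led by Isl2, Sox9 and Lgr5, held 518 Crect lacZ and 26 wild-type cells. A cluster made mostly of 1 library may be that library and not a cell type, and these cannot be told apart here. Foxf1 was at 122 CPM in Crect lacZ and 120 CPM in wild-type cells of it, against 12.7 and 7.90 CPM in the other mesenchyme (log2 change 3.44 ± 0.17 SE, adjusted p = 2.92e-86). Foxc1 was at 89.6 and 30.7 CPM, against 10.7 and 4.82 CPM (log2 change 2.98 ± 0.21 SE, adjusted p = 5.62e-44). Both genes were higher in each library. Foxd1 (61 and 0 UMIs) and Foxd2 (134 and 1 UMIs) were called higher with nearly all their UMIs in Crect lacZ cells, with log2 changes of 1.61 ± 0.42 SE and 1.69 ± 0.33 SE. Their calls were lost without the library term (adjusted p = 0.252 for Foxd1 and 0.0717 for Foxd2) and with DESeq2, and the single wild-type UMI of Foxd2 gives no direction in that library (ratio 0.814, 95% interval 0.0205 to 4.57). Foxf2 changed by 0.89 ± 0.21 SE (adjusted p = 0.000731), under the 2-fold limit. Of the 8 members tested, 4 were called higher against 2.8% of all 14301 genes, and 0 lower against 1.27%. At an unadjusted p under 0.05 edgeR had 0 members lower, and DESeq2 called lower 0 of the members for which it gave a value.

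**Figure D3:**
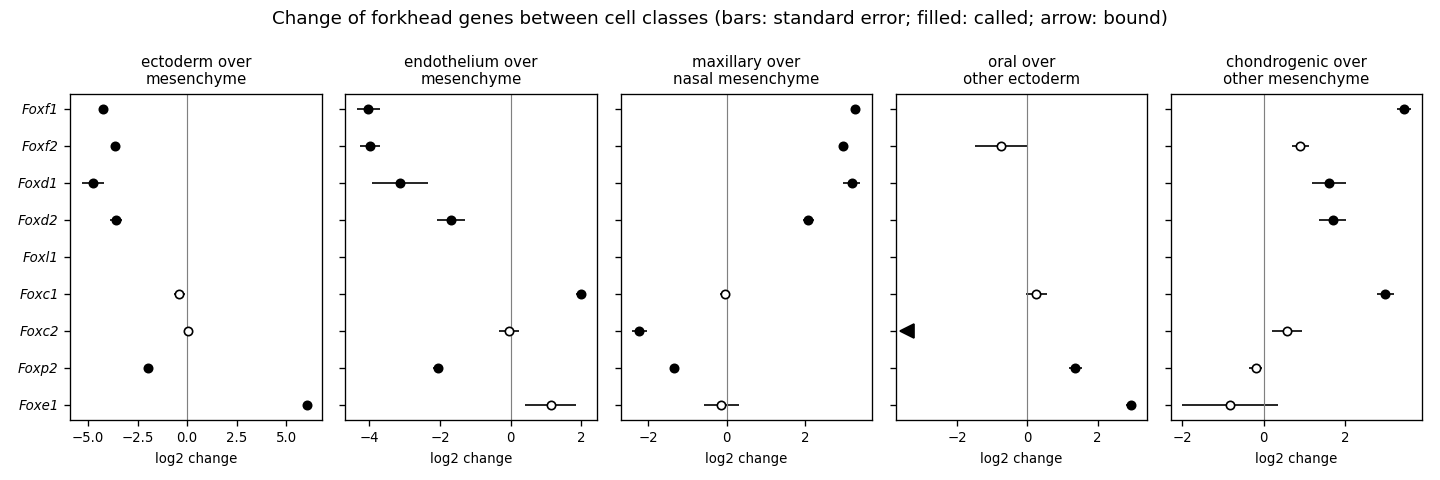
Log2 change (horizontal axis) of each member in the 5 comparisons between classes, from edgeR on 4 library-by-class sums; bars are standard errors, filled points passed both limits, and the arrow is the bound for Foxc2 in oral-like ectoderm. Foxf1 has its lowest change in ectoderm (-4.27) and its highest in the chondrogenic-like sub-cluster (3.44).

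Between the libraries, Foxf1, Foxd1, Foxd2, Foxl1, Foxc1, Foxc2 and Foxp2 were higher in Crect lacZ mesenchyme beyond counting error. Taken over all mesenchyme, Foxf2 and Foxe1 were not. How many of all genes were higher in this sense was not counted, so the list cannot be set against a background share. Foxf1 stood at 21.4 CPM in Crect lacZ and 8.38 CPM in wild type, a ratio of 2.56 (95% interval for counting error 2.34 to 2.79). Foxc1 stood at 17.0 and 4.93 CPM, a ratio of 3.44 (3.09 to 3.85), Foxd1 at 2.97 and 1.04 CPM, a ratio of 2.86 (2.24 to 3.69), and Foxc2 at 6.11 and 3.29 CPM, a ratio of 1.86 (1.60 to 2.15). The ratio was 1.75 (1.51 to 2.03) for Foxd2 and 1.28 (1.23 to 1.33) for Foxp2. For Foxl1, close to the detection floor, it was 5.16 (1.97 to 17.1) from 29 and 5 UMIs, and 2.12 (0.678 to 7.77) without the chondrogenic-like cells. Foxf2 stood at 19.0 and 18.8 CPM, a ratio of 1.01 (0.945 to 1.08). In maxillary-like cells the Foxf2 ratio was 1.16 (1.06 to 1.28), and in nasal-like cells 1.15 (0.988 to 1.34). Of the 11 sub-clusters with at least 10 Foxf2 UMIs in a library, 2 had an interval above 1 and 0 had one below 1. Of the 7 members with at least 100 UMIs, 3 had a ratio of 2 or more, against 1.58% of 12959 genes, whose median ratio was 0.943, and 0 had a ratio of 0.5 or less, against 2.63%. The intervals cover counting error only. The libraries also differ in depth and in the cells each sub-cluster holds, and the part of depth was not tested.

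The chondrogenic-like cells carried part of the difference. Without them the ratio of Foxf1 was 1.61 (1.46 to 1.78), against 2.22 (1.97 to 2.50) for Foxc1 and 2.42 (1.87 to 3.14) for Foxd1, and 1.19% of genes then had a ratio of 2 or more and 2.67% one of 0.5 or less. Foxf1 was above 1 in 9 of the 9 sub-clusters with at least 10 UMIs in a library, with 6 intervals above 1, and Foxc1 in 12 of 12, with 9. The Foxf1 ratio was 1.02 (0.75 to 1.42) in the chondrogenic-like cells themselves and 1.72 (1.52 to 1.95) in maxillary-like cells. The ratio of Foxc1 was 1.19 (0.897 to 1.57) in ectoderm as a whole and 0.775 (0.618 to 0.968) in endothelium. Within ectoderm it was 5.07 (1.81 to 17.5) in periderm-like cells, 2.06 (1.07 to 4.00) in oral-like cells and 0.544 (0.313 to 0.927) in the Tagln-led olfactory-like cells. Foxf1 UMIs in cells that should lack it numbered 17 in Crect lacZ and 5 in wild-type ectoderm, and 0 and 8 in erythroid cells. The 8 wild-type erythroid UMIs amount to 1.18 CPM, against 1.77 CPM in wild-type nasal-like cells, so that nasal value lies near the floor. Foxc2 had a ratio of 2.22 (1.56 to 3.18) in ectoderm, from 90 Crect lacZ and 52 wild-type UMIs. In olfactory-like cells, which held 83 and 43 of these UMIs, its ratio was 1.36 (0.927 to 2.01). Among them it was 1.84 (1.12 to 3.09) in the Tagln-led and 0.555 (0.286 to 1.09) in the Lhx2-led sub-cluster, and the Fgf17-led one had 8 and 0 UMIs. Foxf1 had a ratio of 4.36 (1.54 to 15.1) in ectoderm, from its 17 and 5 UMIs. Of the 10740 genes with at least 100 UMIs in ectoderm, 1.19% had a ratio of 2 or more and 1.65% one of 0.5 or less. Foxf1 did not reach that count, so these shares do not apply to it. Foxe1 had a ratio of 1.07 (0.937 to 1.23) in ectoderm as a whole, with 1.70 (1.43 to 2.02) in oral-like cells and 0.271 (0.191 to 0.379) in the Fgf17-led olfactory-like sub-cluster.

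**Figure D4:**
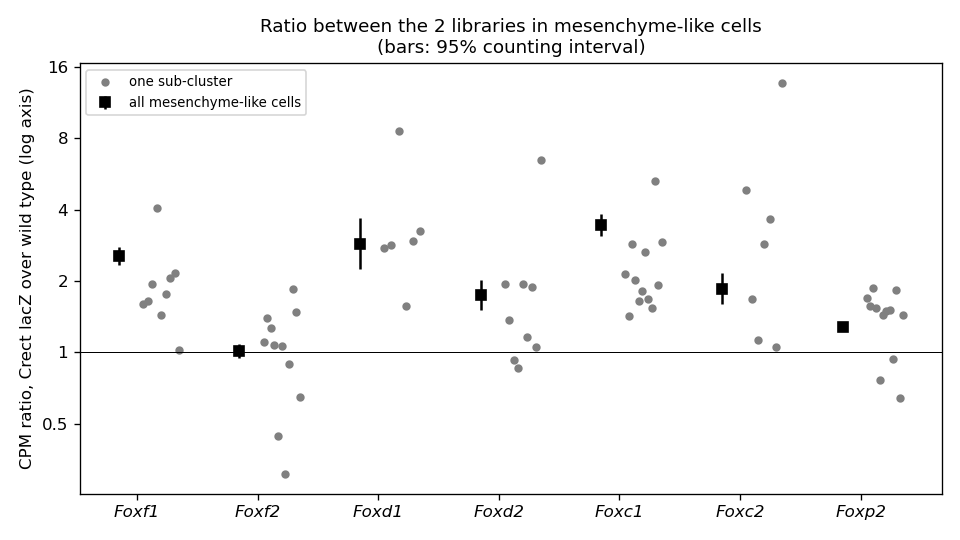
Ratio of CPM in Crect lacZ over wild-type mesenchyme-like cells (vertical log axis) for 7 members; squares are all mesenchyme-like cells with 95% intervals for counting error, and grey points are single sub-clusters with at least 10 UMIs in a library and at least 1 in both. Foxf2 lies at 1.01 with points on both sides of 1, whereas Foxf1 (2.56) and Foxc1 (3.44) have all points above 1.

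In single mesenchyme-like cells with all sub-clusters pooled, some members were higher in cells that held another member. Such pooled ratios also hold the differences between sub-clusters. In Crect lacZ cells with a Foxf1 UMI, Foxf2 stood at 48.4 CPM, against 12.3 CPM in cells with none (ratio 3.93), and in wild-type cells at 53.2 against 15.9 CPM (ratio 3.34). Foxd1 was 8.29 times higher in Foxf1-positive Crect lacZ cells and 5.20 times higher in wild-type ones. Within maxillary-like cells alone these ratios were smaller, at 1.64 and 1.53 for Foxf2. Foxc2 was 4.66 times higher in Foxc1-positive Crect lacZ cells and 7.29 times higher in wild-type ones, and 6.38 and 4.94 times higher in Foxp2-positive cells. Foxp2 was lower in Foxf2-positive cells, with ratios of 0.459 in Crect lacZ and 0.217 in wild type. Cells with a Foxf2 UMI were deeper, with medians of 20128 and 16011 UMIs, against 16659 and 12874 UMIs in cells with none. Levels were scaled to each group's total UMIs. The pairs did not form separate groups, since Foxc1 was also 2.69 times higher in Foxf1-positive Crect lacZ mesenchyme-like cells. Within Crect lacZ chondrogenic-like cells alone, the ratio in Foxf1-positive cells was 0.915 for Foxc1 and 3.17 for Foxc2.

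**Figure D5:**
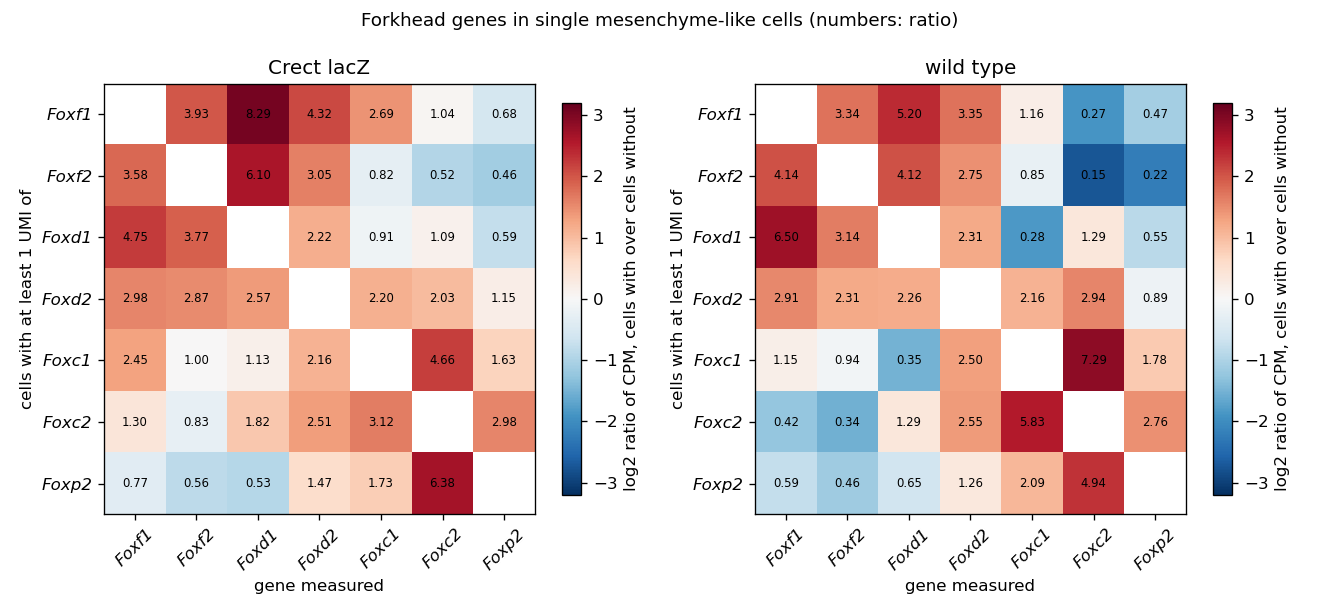
Ratio of CPM of the gene on the horizontal axis in mesenchyme-like cells with at least 1 UMI of the gene on the vertical axis over cells with none; Crect lacZ is on the left and wild type on the right, and colour is the log2 of the printed ratio. Foxf1, Foxf2 and Foxd1 are high in each other's cells (3.93 and 3.34 for Foxf2 in Foxf1-positive cells), and Foxp2 is low in Foxf2-positive cells (0.459 and 0.217).

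The genes most like each member were ranked by Pearson r of log-scaled counts over the cells of the class in which the member was highest, taking the lower of both libraries; r is given as a description, since cells share a library and depth. The lists depend on this measure: ranked instead by the ratio of CPM in cells with and without the member, 0 of the 5 genes were shared for Foxf2, Foxc1 and Foxc2, 1 for Foxd2 and Foxp2, 2 for Foxf1 and Foxl1, and 3 for Foxd1 and Foxe1. For Foxf1 the leading genes were Osr2 (r = 0.329 in Crect lacZ and 0.324 in wild type), Dlk1, Epha3, Frzb and Gpc3, over 5252 and 5915 mesenchyme-like cells. For Foxf2 they were Lhx8 (0.357 and 0.382), Gpc3, Ptch1 (0.377 and 0.315), Epha3 and Frzb. Foxd1 had Foxf1 itself in front (0.263 and 0.14), and Foxp2 had its paralogue Foxp1 (0.471 and 0.372), then Epha4, Meg3, Igf1 and Irx3. Foxe1 had Gm12446 (0.569 and 0.471), Siva1, Dmrt2 and Wfdc2 among its leading genes over 680 and 932 ectoderm-like cells. Foxc2 had its highest mean of both libraries in ectoderm, although in wild type that class was the lowest of the 3 (3.09 CPM, against 3.29 CPM in mesenchyme and 3.41 CPM in endothelium). Its leading genes in ectoderm were Stra6, Pax6, Six3, Slit2 and Aldh1a3, and in mesenchyme its leading gene was Gsc (0.301 and 0.359). Foxd2 had Epha3 in front (0.178 and 0.158), the leading values of Foxc1 in endothelium came from 118 and 207 cells (Rgs2, 0.247 and 0.217), and those of Foxl1 stayed under 0.1.

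Neighbouring genes and the Hedgehog pathway were set beside the members. Fendrr stood at 5.87 CPM in Crect lacZ and 3.44 CPM in wild-type maxillary-like cells, against 0.79 and 0.437 CPM in nasal-like cells, and at 34.6 and 16.7 CPM in chondrogenic-like cells. It was 10.7 and 11.2 times higher in cells with a Foxf1 UMI. Whether counting used strand is not known here. Fendrr and Foxf1 do not overlap as annotated, but reads of a transcript that reached beyond its annotated bounds into the other gene could not be told apart. Mthfsd, between Foxf1 and Foxc2, stood at 23.8 and 21.9 CPM in mesenchyme and 30.2 and 26.6 CPM in ectoderm, and so did not share the mesenchymal pattern of Foxf1. Ptch1, the Hedgehog receptor and target, stood at 98.7 and 106 CPM in maxillary-like cells, against 33.3 and 30.3 CPM in nasal-like cells (log2 change 1.71 ± 0.04 SE), and Gli1 at 23.9 and 18.6 CPM, against 11.7 and 8.93 CPM (1.06 ± 0.08 SE). Gas1 (-1.09) and Cdon (-1.60) were called lower. Of the 14 listed Hedgehog genes, all tested, 2 were called higher (1.74% of all genes) and 3 lower (2.81%) in maxillary-like cells, with a median log2 change of -0.03, against 0.00 over all genes. Spearman's rho with Ptch1 was taken over the 12 sub-clusters, which share libraries. It was 0.846 in Crect lacZ and 0.937 in wild type for Foxf2, and 0.846 and 0.909 for Foxf1. For Foxd1 it was 0.846 and 0.683, for Foxd2 0.413 and 0.671, and for Foxp2 -0.622 and -0.378. With Gli1, rho was 0.839 and 0.825 for Foxf2 and 0.664 and 0.741 for Foxf1. It was 0.664 and 0.704 for Foxd1 and 0.210 and 0.378 for Foxd2. The Ptch1 ratio between the libraries in mesenchyme was 1.01 (0.967 to 1.05), and that of Gli1 1.25 (1.15 to 1.36).

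The listed Hedgehog genes were counted in the other comparisons as well. In oral-like ectoderm 4 of the 13 tested were called higher, against 2.18% of all genes, led by Shh at 96.0 CPM in Crect lacZ and 70.6 CPM in wild type against 3.43 and 0.976 CPM (log2 change 5.39 ± 0.18 SE), and 2 lower, against 3.26%. In ectoderm 3 of the 14 rose, against 13.8% of all genes, and 3 fell relative to mesenchyme, against 8.64%. In endothelium 10 of 14 fell, against 16.2%, and in chondrogenic-like cells 1, Gas1, fell relative to other mesenchyme, against 1.27%. Among the 35 other forkhead genes, Foxo1 was higher in endothelium, at 49.5 CPM in Crect lacZ and 52.5 CPM in wild type, against 11.8 and 12.7 CPM in mesenchyme (log2 change 2.25 ± 0.11 SE), and Foxp4 lower (-1.13 ± 0.13 SE). In ectoderm 8 of the 20 other forkhead genes tested were called higher, against 13.8% of all genes. In maxillary-like cells 1 of 16 was, against 1.74%, and in chondrogenic-like cells 1 of 17, against 2.8%. In each of these comparisons 0 were called lower. In endothelium 1 of 15 was called higher, against 12.6%, and 1 lower, against 16.2%. In oral-like ectoderm 0 of 15 were called higher, against 2.18%, and 2 lower, against 3.26%.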

How the data were processed

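Single-cell RNA was sequenced with a droplet kit that reads the 3′ end of transcripts. The authors deposited whole-number UMI counts for each barcode and gene, without normalization. Cell Ranger 2.0 and mm10 are named in the submitters' processing notes. Positions came from GENCODE, in which 27645 of the 27998 gene identifiers were found. The members and lists were chosen with earlier results of these data known.

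Barcodes with at most 10% mitochondrial UMIs were kept. Scrublet scores marked doublets, and the highest scores were removed at 0.8% per 1000 barcodes (369 Crect lacZ and 504 wild-type), since its automatic threshold marked 90 and 205. Clustering used the log of each cell's counts at a total of 10000, z-scored within each library, over 2000 variable genes with no forkhead gene among them, and 30 components. Clusters used 15 neighbours and Leiden at resolution 1.0 (scanpy 1.11.5, leidenalg 0.10.2), and sub-clusters 0.8. Names came from marker lists and a score of at least 0.35, and for sub-clusters also 1.2 times the next score. For classes, a list with markers among a cluster's 10 leading genes took precedence over the highest score. The Pax6- and Six3-led cluster of 657 cells was thus named ectoderm (score 0.674) although the neuron list scored higher (0.722). The naming rule was set after the data were seen.

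UMIs were summed per library and class, and 4 sums per comparison were tested with edgeR 4.0.16 in R 4.3.3 (TMM, filterByExpr, quasi-likelihood test with Benjamini-Hochberg adjustment over all genes tested, library as a block). With 1 residual degree of freedom the spread was borrowed across genes, and in 3 of the 5 comparisons (endothelium, oral, chondrogenic) the prior degrees of freedom were infinite. The block pairs the 2 classes of a library, which come from the same pool of embryos. The p-values measure only the spread between these sums. On simulated data for maxillary against nasal cells (14167 genes), 84% of genes changed 2-fold and 95% of those changed 4-fold were recovered. The shares were 74% and 90% for ectoderm (15145 genes), 65% and 87% for endothelium (14468), 69% and 97% for oral-like (12275) and 51% and 75% for chondrogenic-like cells (14301). Recovery meant an adjusted p under 0.05 in the right direction, without the 2-fold limit, so these shares are not those of the calls. The simulated libraries differed only in total counts. Unchanged genes that passed numbered 8 for maxillary-like, 12 for ectoderm, 2 for endothelium, 5 for oral-like and 2 for chondrogenic-like cells. Ratios between libraries carry exact conditional 95% intervals and shares Clopper-Pearson intervals. These cover counting error only.

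The genes named are the members, per comparison and direction the 5 other forkhead genes (at a mean of 5 CPM or more) and the 2 Hedgehog genes with the largest called changes, genome neighbours of members, and the 5 genes most like each member. A few genes that this rule names are not reported here. Alternatives were no filter, no library term, DESeq2 1.42.0, doublets kept, a lower resolution, forkhead genes among the clustering features, each library left out, a limit of 5% mitochondrial UMIs, thinning to 6000 UMIs or none, equal weights of sub-clusters, chondrogenic-like cells left out, and another measure of likeness.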

Additional observations from a re-analysis of the deposited data

Results flagged for a closer look

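These results stood out because the effect went opposite ways in 2 groups. With 1 library per genotype the differences were not tested, and the ratios carry counting intervals only. Foxc1 in ectoderm over mesenchyme was 0.453 in Crect lacZ and 1.32 in wild type. The Crect lacZ over wild-type ratio of Foxc1 was 3.44 in mesenchyme and 0.775 in endothelium. Within ectoderm, that ratio of Foxc1 was 2.06 in the oral-like sub-cluster and 0.544 in the olfactory-like sub-cluster led by Tagln and Mgp. For Foxp2 it was 1.87 in the maxillary-like sub-cluster led by Hist1h2bc and 0.643 in the nasal-like sub-cluster led by Calb2 and Irx5. For Foxe1 it was 1.70 in the oral-like sub-cluster and 0.271 in the olfactory-like sub-cluster led by Fgf17. The smallest of these rest on 23 Crect lacZ and 19 wild-type UMIs (Foxc1, oral-like).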

How the results depend on the processing

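Of the members' test results over the alternatives, 234 kept their direction and side of the threshold, 15 lost a call and 4 changed sign. With no replicate block, calls over all genes fell to 9 higher and 27 lower for maxillary against nasal cells, 95 and 60 for oral against other ectoderm, and 180 and 74 for chondrogenic against other mesenchyme. The main counts were 246 and 398, 268 and 400, and 401 and 181. DESeq2 called 150 and 193, 138 and 103, and 118 and 66. The 4 sign changes were Foxc1 (0.77) and Foxp2 (0.0723) in maxillary-like cells at the lower resolution, and, with doublets kept, Foxe1 in maxillary-like (0.11) and chondrogenic-like cells (0.95). The cause was not tested. With 1 library left out, Foxd2 in chondrogenic-like cells ranged between -0.30 and 1.87 on the log2 scale, with no test, and the lower value rests on 1 wild-type UMI.

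Ratios between the libraries moved with the weight of sub-clusters. With equal weights they were 1.95 for Foxf1, 0.896 for Foxf2, 2.22 for Foxd1, 1.36 for Foxd2, 2.17 for Foxc1, 2.39 for Foxc2 and 0.985 for Foxl1, against 5.16 over all mesenchyme-like cells. Only sub-clusters with UMIs in both libraries enter these means, which left 1 for Foxl1. Without chondrogenic-like cells they were 1.61 for Foxf1, 1.44 for Foxd2 and 2.22 for Foxc1. Leaving out the sub-cluster of low depth, an alternative chosen after seeing the data, changed no member's call, and the likeness over mesenchyme was also added then. Depth limits Foxl1, with 29 Crect lacZ and 5 wild-type UMIs, and the 26 wild-type chondrogenic-like cells.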

Other observations

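Some member levels belong to classes that entered no comparison. Foxp2 stood at 28.1 CPM in 22 Crect lacZ crest glia-like cells and at 14.5 CPM in 28 wild-type ones (18 and 8 UMIs). Foxc1 stood at 23.5 CPM in Crect lacZ and 4.64 CPM in wild-type periderm-like ectoderm (18 and 5 UMIs). In the unnamed ectodermal sub-cluster led by Col9a1 and Adamts9, Foxc1 stood at 25.8 CPM in Crect lacZ and 12.3 CPM in wild type (14 and 15 UMIs), and Foxp2 at 25.8 and 24.5 CPM. Foxq1, the neighbour of Foxf2, stood at 1.45 CPM in Crect lacZ and 0.99 CPM in wild-type maxillary-like cells, against 0.148 and 0.076 CPM in nasal-like cells, from 26 and 21 UMIs against 9 and 4. Gmds, next to Foxc1, stood at 54.9 CPM in Crect lacZ and 45.8 CPM in wild-type endothelium, against 20.7 and 16.8 CPM in mesenchyme.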
